A study of Mus musculus and Rattus norvegicus with 85 samples.

Results

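Slc7a11, Gclc, Gclm, Gss and Gsr, 5 genes that make and recycle glutathione, were followed in the lungs of mice and rats that inhaled chloroprene, the chlorinated butadiene from which neoprene rubber is made. All probe sets annotated to these symbols were taken: 10 of 34945 named probe sets on the mouse array and 6 of 20826 on the rat array. After a filter on low signal, all 5 genes were among the 13796 mouse genes tested and 4 were among the 11010 rat genes tested. Rat Slc7a11 stayed below the filter and is described by its values. Female B6C3F1/Crl mice breathed air alone (0 ppm) or chloroprene at 4 concentrations, 0.3, 2, 13 and 90 ppm, for 5 exposure days, and the same 4 concentrations without an air group for 15. Female rats of the strain spelled F334/NCrl in the sample labels and F344/NCrl in the series text were exposed to 5, 30, 90 or 200 ppm for 5 or 15 exposure days. All animals were adults, 10 weeks old at the start, and spent 6 hours a day on 5 days a week in whole-body exposure with air as the vehicle. RNA came from the right lung, and each of the 17 groups held 5 animals with 1 array each. The reference was the air group for the mice at 5 days and the lowest concentration of the same time elsewhere, so a change already present at 0.3 ppm (mice at 15 days) or 5 ppm (rats) was not measured.

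Glutathione is a tripeptide of glutamate, cysteine and glycine that neutralizes electrophiles and peroxides. Slc7a11 is the light chain of the cystine importer at the cell surface, and Gclc and Gclm are the catalytic and modifier subunits of glutamate-cysteine ligase, whose step limits the rate of synthesis. Gss, glutathione synthetase, adds glycine, and Gsr, glutathione reductase, returns oxidized glutathione to the reduced form. These genes are textbook targets of the transcription factor NRF2, which binds antioxidant response elements, and Slc7a11 is also a target of ATF4, the factor of the amino acid response. In bronchiolar epithelium, where chloroprene is oxidized to reactive epoxides, conjugation with glutathione is a main route of their removal.

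The promoters are shown because the 5 genes rose together in the mouse. The promoter table of RefSeq (build GRCm38.p6) held 3 of the 5 mouse genes, Slc7a11, Gclm and Gss, whose windows differ in the regulatory letters searched. Each sequence is the 250 bases before the annotated start, 5′ to 3′ on the gene's strand. Capitals mark matches on either strand to TGACNNNGC, the core of the antioxidant response element, or to TGATGCAA, a core of the amino acid response element.
Slc7a11, chr3:50443614-50443863, minus strand: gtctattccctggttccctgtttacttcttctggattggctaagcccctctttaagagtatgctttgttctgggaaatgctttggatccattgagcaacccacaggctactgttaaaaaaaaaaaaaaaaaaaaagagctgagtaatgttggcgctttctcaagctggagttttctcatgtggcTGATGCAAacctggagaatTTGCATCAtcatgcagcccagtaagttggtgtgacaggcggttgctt
Gclm, chr3:122245307-122245556, plus strand: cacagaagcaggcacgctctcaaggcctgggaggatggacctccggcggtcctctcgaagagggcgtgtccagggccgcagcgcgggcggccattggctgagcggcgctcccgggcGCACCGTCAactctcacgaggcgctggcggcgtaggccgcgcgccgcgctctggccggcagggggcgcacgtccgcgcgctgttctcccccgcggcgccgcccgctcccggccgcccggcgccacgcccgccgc
Gss, chr2:155592811-155593060, minus strand: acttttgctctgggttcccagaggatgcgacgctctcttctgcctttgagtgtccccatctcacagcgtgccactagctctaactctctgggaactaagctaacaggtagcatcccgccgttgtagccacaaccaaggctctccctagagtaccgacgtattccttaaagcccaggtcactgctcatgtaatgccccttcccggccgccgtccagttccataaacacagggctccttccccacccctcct
The Slc7a11 window held TGATGCAA on each strand, at 66 to 59 and at 47 to 40 bases before the start, with the copies facing each other. Of 32851 promoter windows of the same length in the table, 260 (0.791%) held this motif and 2 held it more than once. The Gclm window held TGACNNNGC once, on the opposite strand, at 134 to 126 bases before the start, as TGACGGTGC, a motif that 3338 windows (10.2%) held. Gss held neither motif in this window. The windows differed in base composition, with 43.2% G and C in Slc7a11, 56.0% in Gss and 78.4% in Gclm. A match is a description of letters, and no binding was measured.

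Values are log2 signals per probe set as deposited. A change is the log2 difference between 2 group means ± the standard error (SE) of a fit over all arrays of the species, with n = 5 animals a group. A gene rose or fell where limma's adjusted p (Benjamini-Hochberg over all genes of the comparison, two-sided) was below 0.05. Tissue identity was checked with the lung genes Sftpc, Sftpb, Scgb1a1 and Ager, which ranged from 13.4 to 15.3 on all 85 arrays. The medians of the arrays lay between 7.25 and 7.37, and no 2 arrays held identical values. Of the mice labelled 15 days in the titles, 9 have another duration in a second label field, and results that rest on them are given without them where they differ. They are animals 126, 127 and 128 at 0.3 ppm, 141 and 143 at 2 ppm, 157 at 13 ppm, and 178, 179 and 181 at 90 ppm. A fit without them holds fewer than 5 mice in each 15-day group, fewest at 0.3 and 90 ppm. In whole lung, fewer cells of a type and less RNA per cell cannot be told apart.

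After 5 days, all 5 genes rose in the mouse at 90 ppm, and 4 of them rose at 13 ppm. At 2 ppm Gclc, Gclm and Gss rose, and at 0.3 ppm none of the 5 passed. Among all genes tested, 0% were called higher at 0.3 ppm (0 of 13796 by limma, with 514 at an unadjusted p below 0.05), 1.07% at 2 ppm, 1.17% at 13 ppm and 8.99% at 90 ppm. None of the 5 was lower at any of these concentrations, where 0.138%, 0.13% and 7.35% of all genes fell at 2, 13 and 90 ppm. The median change of the 5 genes was 0.03, 0.36, 0.74 and 1.05 at 0.3, 2, 13 and 90 ppm, beside 0.01, 0.02, 0.00 and 0.01 over all genes. All 5 exposed mice lay above all 5 air mice for none of the 5 genes at 0.3 ppm, for 4 at 2 ppm and for 5 at 13 and at 90 ppm, as they did for 0.761%, 3.66%, 2.86% and 7.99% of all genes. Slc7a11 entered the test through 8 of 45 arrays, all from the 13 and 90 ppm groups, so it could be counted only because it was high there.

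**Figure D1:**
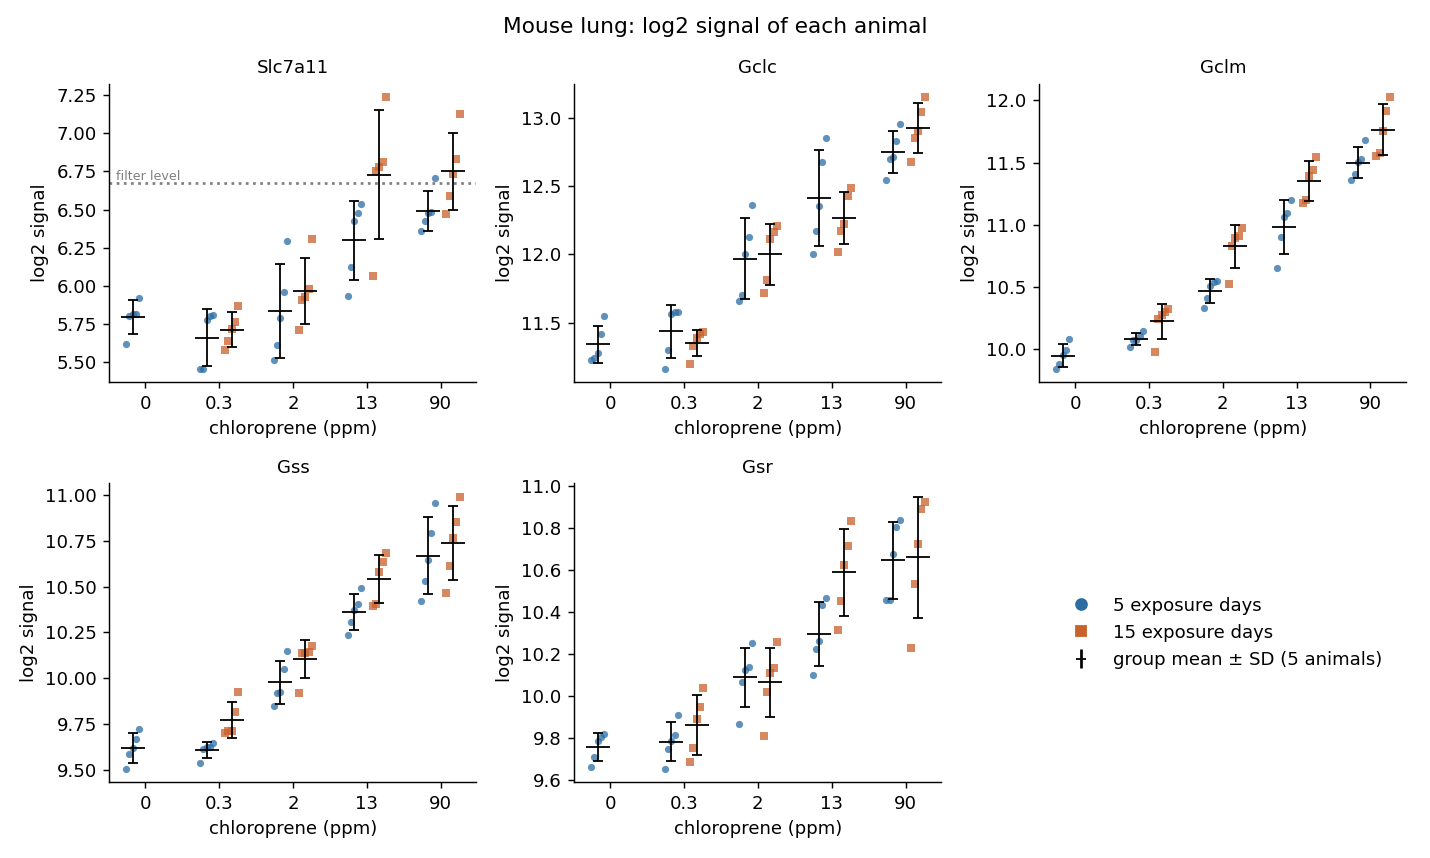
Log2 signal of each mouse (points) by chloroprene concentration in ppm for the 5 genes, at 5 (blue) and 15 (orange) exposure days, with group means ± SD of 5 mice. The dotted line in the Slc7a11 panel is the filter level of 6.67. At 90 ppm every mouse lies above every 0 ppm mouse in all 5 panels.

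Slc7a11 signals at 5 days were 5.62, 5.80, 5.81, 5.82 and 5.92 in the air group. At 90 ppm they were 6.36, 6.42, 6.48, 6.49 and 6.70, above every air mouse. The probe set rose by 0.69 ± 0.15 (adjusted p = 0.00076), but all air mice and 4 of the 5 at 90 ppm were under the filter level, so no fold is given. At 13 ppm the 5 values, from 5.93 to 6.54, also lay above all air mice, but the change of 0.50 ± 0.15 did not pass (adjusted p = 0.0831). The change at 13 ppm passed without animal 153 (0.59, adjusted p = 0.0403), with the 5-day arrays alone (adjusted p = 0.0459) or against the 0.3 ppm mice (0.64 ± 0.15, adjusted p = 0.0304). The call against 0.3 ppm ended when animal 118 or 119 of the 0.3 ppm group or animal 149, 152 or 154 of the 13 ppm group was left out, with values from 0.58 to 0.61 and adjusted p from 0.093 to 0.173. At 2 ppm the change was 0.04 ± 0.15, with values from 5.51 to 6.30 that overlapped both neighbours.

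The other Slc7a11 probe set, 1443536_at, gave larger changes. In the air group it read 4.91, 4.95, 5.00, 5.03 and 5.32. At 13 ppm it read 5.88, 6.22, 7.09, 7.13 and 7.19, and at 90 ppm 5.77, 6.45, 6.68, 7.04 and 7.73. Both exposed groups lay wholly above the air group but spread over more than 1 log2 unit within themselves. The change was 1.66 ± 0.25 at 13 ppm (adjusted p = 3.63e-05) and 1.69 ± 0.25 at 90 ppm (adjusted p = 3.88e-06), against 0.50 and 0.69 by 1420413_at. With both probe sets averaged, the change at 13 ppm was 1.08 ± 0.17 and passed (adjusted p = 1e-04). This probe set was above the filter on 13 of 45 arrays, all from the 13 and 90 ppm groups. It could be tested, alone or in the average, only because it was high there.

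**Figure D2:**
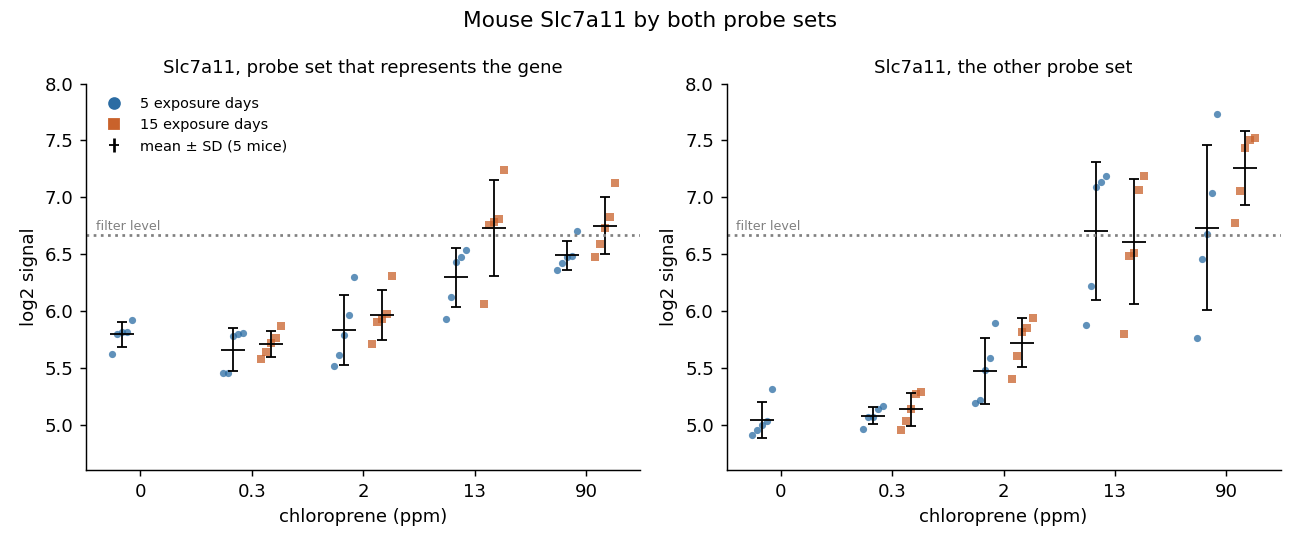
Log2 signal of Slc7a11 in each mouse by concentration in ppm, by the probe set that represents the gene (left) and by the other (right), at 5 and 15 exposure days, with means ± SD of 5 mice and the filter level (dotted). The exposed groups at 13 and 90 ppm rise further above the air group in the right panel.

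Gclc, the catalytic subunit, read 11.22, 11.24, 11.28, 11.41 and 11.55 in air at 5 days. The 2 ppm mice read 11.66, 11.70, 12.00, 12.12 and 12.36, those at 13 ppm 12.00, 12.17, 12.36, 12.68 and 12.85, and those at 90 ppm 12.55, 12.70, 12.71, 12.83 and 12.95. Every mouse at 2 ppm or above lay over every air mouse, while neighbouring exposed groups overlapped. Gclc rose by 0.63 ± 0.13 at 2 ppm (1.55-fold, adjusted p = 0.0107), by 1.07 ± 0.13 at 13 ppm (2.10-fold) and by 1.41 ± 0.13 at 90 ppm (2.65-fold, adjusted p = 1.47e-10). The call at 2 ppm ended without animal 136 (0.59, adjusted p = 0.0534) or 137 (0.53, adjusted p = 0.0716) of that group. The other probe set, 1424296_at, rose by 0.61, 1.16 and 1.55 at these concentrations.

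Gclm, the modifier subunit, was at 9.84, 9.88, 9.95, 9.99 and 10.08 in air. It was at 10.33, 10.41, 10.51, 10.54 and 10.55 in the 2 ppm mice, at 10.65, 10.90, 11.06, 11.10 and 11.20 at 13 ppm and at 11.36, 11.40, 11.51, 11.53 and 11.68 at 90 ppm. From 0.3 ppm upward no group at 5 days overlapped the next one for this gene. The share of all genes for which this held was not counted. Gclm rose by 0.52 ± 0.09 at 2 ppm (1.44-fold, adjusted p = 0.00204), by 1.04 ± 0.09 at 13 ppm (2.05-fold) and by 1.55 ± 0.09 at 90 ppm (2.93-fold, adjusted p = 4.84e-16). By its other probe set, 1439050_at, the changes were 0.42 (adjusted p = 0.347), 0.98 and 1.31, of which the last 2 passed. At 0.3 ppm, where the values ran from 10.02 to 10.15, the change was 0.14 ± 0.09 with a 95% interval from -0.06 to 0.33.

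Gss signals were 9.51, 9.58, 9.62, 9.67 and 9.72 in air and 9.85, 9.92, 9.92, 10.05 and 10.15 at 2 ppm. They were 10.23, 10.31, 10.37, 10.40 and 10.49 at 13 ppm and 10.42, 10.53, 10.65, 10.79 and 10.95 at 90 ppm. The air, 2 ppm and 13 ppm groups did not overlap, and the 13 and 90 ppm groups did. How many of all genes kept the 2 and 13 ppm groups apart was not counted. Gss rose by 0.36 ± 0.08 at 2 ppm (1.28-fold, adjusted p = 0.0241), by 0.74 ± 0.08 at 13 ppm and by 1.05 ± 0.08 at 90 ppm (2.07-fold, adjusted p = 1.93e-12). The call at 2 ppm ended without animal 101, 102 or 103 of the air group or animal 136 or 137 of the 2 ppm group, with values from 0.31 to 0.37 and adjusted p from 0.0565 to 0.13. It also ended after quantile normalization (0.33, adjusted p = 0.0572). By the other probe set, 1441931_x_at, the changes were 0.37 (adjusted p = 0.0559), 0.72 and 1.02.

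Gsr, the recycling enzyme, was at 9.66, 9.71, 9.79, 9.80 and 9.82 in air and at 9.87, 10.07, 10.12, 10.14 and 10.25 in the 2 ppm mice. It was at 10.10, 10.22, 10.26, 10.43 and 10.46 at 13 ppm and at 10.46, 10.46, 10.68, 10.80 and 10.84 at 90 ppm. All 2 ppm mice lay above all air mice, but the change of 0.33 ± 0.11 did not pass (adjusted p = 0.115). When only the 5-day arrays were fitted, the same change passed (adjusted p = 0.043). Gsr rose by 0.54 ± 0.11 at 13 ppm (1.45-fold, adjusted p = 0.00238) and by 0.89 ± 0.11 at 90 ppm (1.85-fold, adjusted p = 5.99e-08). The other probe set, 1421816_at, was at 0.11 ± 0.10 at 2 ppm and rose by 0.42 at 13 ppm and 0.73 at 90 ppm.

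The reference group mattered at 2 ppm. Against the 0.3 ppm mice of the same time, the changes at 2 ppm were 0.53 for Gclc, 0.39 for Gclm and 0.37 for Gss, and none passed (adjusted p from 0.0833 to 0.163, with 0.0797% of all genes called higher). At 13 and 90 ppm all 5 genes rose against 0.3 ppm as well, where 0.341% and 5.23% of all genes rose and 0.00725% and 4.62% fell. The limit that the filter sets on counting Slc7a11 holds here too. The 2, 13 and 90 ppm mice lay wholly above the 0.3 ppm mice for 3, 5 and 5 of the genes and for 0.863%, 1.34% and 5.03% of all genes. With the RNA integrity number as covariate the 3 calls at 2 ppm against air also ended. That fit dropped the 5 mice without that number, which left 2 of the 5 air mice and 3 of the 5 mice at 2 ppm. The loss of mice and the covariate cannot be told apart there. The changes there were 0.68 for Gclc (adjusted p = 0.296), 0.66 for Gclm (adjusted p = 0.0675) and 0.41 for Gss (adjusted p = 0.257). Each was larger than in the fit of all mice. In the same fit Gsr at 13 ppm (0.65, adjusted p = 0.0765) and Slc7a11 at 90 ppm (0.65, adjusted p = 0.0605) did not pass either. With the 3′ minus 5′ difference of control probe sets as covariate, described with the rat Gsr values, Gclc at 2 ppm was at 0.56 (adjusted p = 0.0537).

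**Figure D3:**
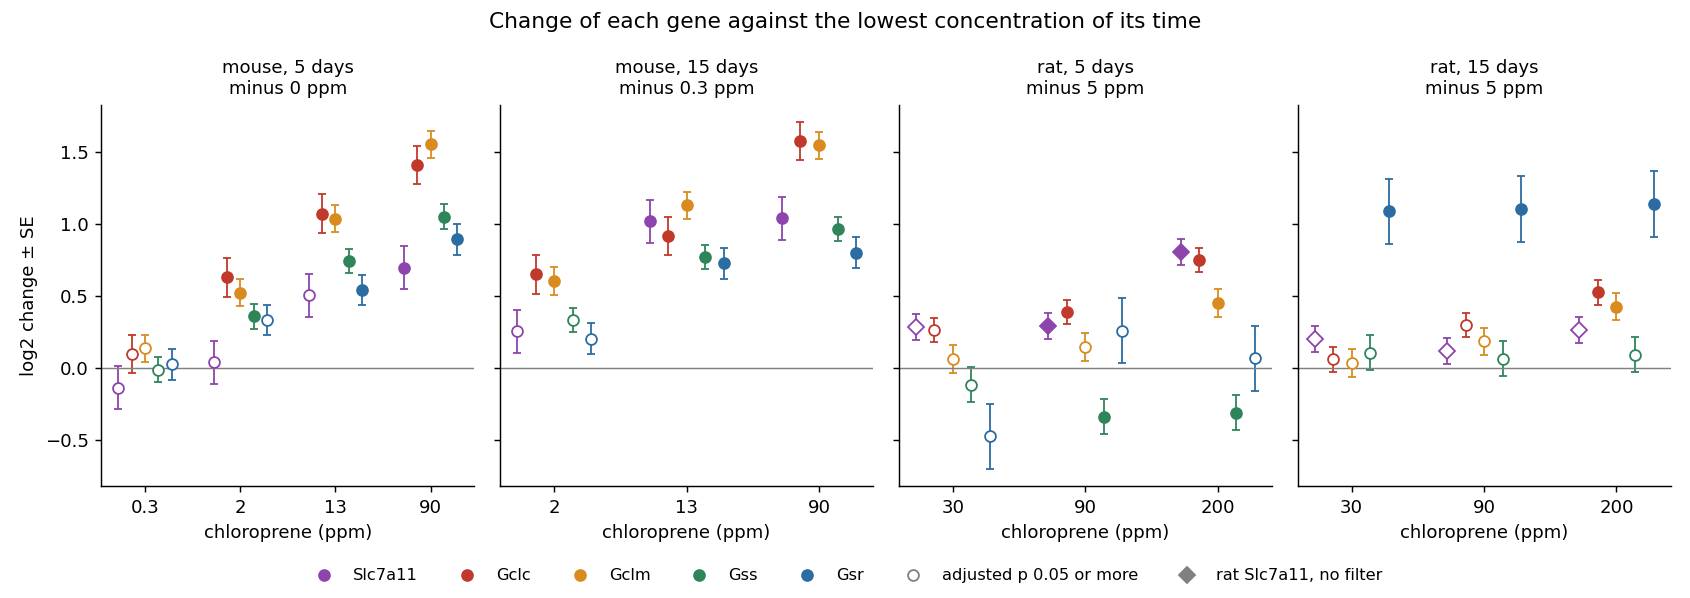
Log2 change ± SE of each gene against the reference of its time (0 ppm for mice at 5 days, 0.3 ppm for mice at 15 days, 5 ppm for rats) by concentration in ppm. Filled symbols passed an adjusted p of 0.05, and diamonds are rat Slc7a11 from the fit without a filter. In the mouse panels all 5 genes are higher at 13 and 90 ppm than at 2 ppm. In the rat panels Gclc and Gclm rise at 200 ppm, and Gss and Gsr take other courses.

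At 5 days most of the change at 90 ppm was already present at 13 ppm. At 5 days the change at 13 ppm was 76.1% ± 8.53 (SE) of that at 90 ppm for Gclc, 66.7% ± 5.37 for Gclm, 70.6% ± 7.14 for Gss, 60.7% ± 10.5 for Gsr and 72.4% ± 19.1 for Slc7a11. At 2 ppm these shares were 44.6% ± 8.18, 33.6% ± 5.36, 34.0% ± 7.06, 37.3% ± 10.5 and 5.54% ± 20.8, in the same order. By the other probe sets the shares at 13 ppm were 75.1% ± 7.95, 74.9% ± 13.1, 70.4% ± 8.38, 57.8% ± 12.2 and 98.2% ± 14.5, and those at 2 ppm 39.1% ± 7.70, 32.3% ± 12.8, 36.0% ± 8.26, 14.6% ± 13.2 and 25.7% ± 13.1. At 2 ppm the pairs of probe sets of Gsr and of Slc7a11 lay furthest apart. From 2 to 13 ppm only Gclm rose (0.51 ± 0.09, adjusted p = 0.0195), in a step where 0.0217% of all genes rose. From 13 to 90 ppm Gclm rose by 0.52 ± 0.09, Gss by 0.31 ± 0.08 and Gsr by 0.35 ± 0.11 (2.48% of all genes rose and 2.31% fell), while Gclc was at 0.34 ± 0.13 (adjusted p = 0.146) and Slc7a11 at 0.19 ± 0.15. Several of these step calls ended when any 1 of several animals was left out. Over all such fits the Gclm step from 2 to 13 ppm stayed between 0.46 and 0.60. From 13 to 90 ppm the Gss step stayed between 0.24 and 0.37 and the Gsr step between 0.30 and 0.40. The Gclm step from 2 to 13 ppm ended without animal 133 or 135 (2 ppm) or 151, 152 or 154 (13 ppm), with adjusted p from 0.104 to 0.23. From 13 to 90 ppm the Gss step ended without animal 153, 165 or 168 (adjusted p from 0.0708 to 0.115), and the Gsr step ended without animal 149, 153, 154, 165, 166 or 168 (adjusted p from 0.079 to 0.142). The Gsr step also ended without the filter (adjusted p = 0.0571) and with every probe set tested by itself (adjusted p = 0.0563), and the Gclm step from 2 to 13 ppm ended with the mean of both probe sets (adjusted p = 0.11). With the RNA integrity number as covariate Gss (adjusted p = 0.0765) and Gsr (adjusted p = 0.103) did not pass from 13 to 90 ppm, nor Gclm from 2 to 13 ppm (adjusted p = 0.819). That fit held 3 mice at 2 ppm. Without animal 154 the Gclc step passed (0.45, adjusted p = 0.0397).

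After 15 days all 5 genes again rose in the mouse at 13 and at 90 ppm, here against 0.3 ppm. Slc7a11 was over the filter level in 4 mice at 13 ppm and 3 at 90 ppm of this time. It could therefore be counted only because it was high in these groups. Among all genes, 0.319% rose at 13 ppm and 4.68% at 90 ppm, and 0.00725% and 3.29% fell. Gclc rose by 0.91 ± 0.13 and 1.57 ± 0.13 at these concentrations, Gclm by 1.13 ± 0.09 and 1.54 ± 0.09, Gss by 0.77 ± 0.08 and 0.97 ± 0.08, Gsr by 0.73 ± 0.11 and 0.80 ± 0.11, and Slc7a11 by 1.02 ± 0.15 and 1.04 ± 0.15. In all 5 genes the 5 mice at each of these concentrations lay above the 5 mice at 0.3 ppm, as 0.725% and 2.27% of all genes did. At 2 ppm Gclc (0.65 ± 0.13, adjusted p = 0.0184) and Gclm (0.60 ± 0.09, adjusted p = 0.000359) rose, beside 0.109% of all genes, and these 2 genes lay wholly above the 0.3 ppm mice, as 0.159% of all genes did. Gss was at 0.33 ± 0.08 (adjusted p = 0.268), Gsr at 0.20 ± 0.11 and Slc7a11 at 0.25 ± 0.15. The Gclc call at 2 ppm ended without animal 126, 127, 129, 143, 144 or 145, with values from 0.60 to 0.66 and adjusted p from 0.0572 to 0.121. It also ended without the 9 mice of conflicting duration (0.61, adjusted p = 1), and so did the Gclc call at 13 ppm (0.82, adjusted p = 0.0579). With the mean of both probe sets the Gclm call at 2 ppm ended (0.54, adjusted p = 0.0696), and without the mice with a lettered number the Gclc call at 2 ppm did (0.55, adjusted p = 0.999).

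The 15-day values of Gclm were 9.98, 10.24, 10.28, 10.30 and 10.32 at 0.3 ppm and 10.53, 10.83, 10.89, 10.91 and 10.97 at 2 ppm. They were 11.17, 11.20, 11.39, 11.44 and 11.55 at 13 ppm and 11.56, 11.57, 11.75, 11.92 and 12.03 at 90 ppm. As at 5 days, no group overlapped the next, and the share of all genes for which this held was not counted. Slc7a11 was at 5.58, 5.64, 5.71, 5.76 and 5.87 at 0.3 ppm, at 6.06, 6.76, 6.78, 6.81 and 7.24 at 13 ppm and at 6.47, 6.59, 6.73, 6.83 and 7.12 at 90 ppm. The 13 and 90 ppm mice overlapped for Slc7a11, and 1 mouse at 13 ppm sat closer to the 2 ppm group, which ended at 6.31. By its other probe set Slc7a11 rose by 1.47 ± 0.25 at 13 ppm and 2.12 ± 0.25 at 90 ppm. That probe set, too, entered the test only through arrays of these concentrations.

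The steps between neighbouring concentrations were also compared at 15 days. From 2 to 13 ppm Gclm (0.52), Gss (0.44), Gsr (0.52) and Slc7a11 (0.76) rose and Gclc did not pass (0.26 ± 0.13, adjusted p = 1), beside 0.109% of all genes. From 13 to 90 ppm Gclc (0.66 ± 0.13, adjusted p = 0.00111) and Gclm (0.42 ± 0.09) rose, and Gss (0.20 ± 0.08, adjusted p = 0.143), Gsr (0.07 ± 0.11) and Slc7a11 (0.02 ± 0.15) did not pass, where 4.2% of all genes rose and 3.64% fell. Without the mice of conflicting duration Gss passed as well (0.42, adjusted p = 0.024), with only animals 177 and 180 left at 90 ppm. The change at 13 ppm was 58.0% ± 7.33 of that at 90 ppm for Gclc, 73.0% ± 5.48 for Gclm, 79.6% ± 7.98 for Gss, 91.0% ± 12.8 for Gsr and 98.1% ± 14.2 for Slc7a11. By the other probe sets it was 60.2% ± 6.73, 60.7% ± 10.9, 73.3% ± 8.65, 69.0% ± 9.78 and 69.4% ± 10.3, and from 13 to 90 ppm these gave 0.29 ± 0.10 for Gsr (adjusted p = 0.0832) and 0.65 ± 0.25 for Slc7a11 (adjusted p = 0.107). The differences between genes in these shares were not tested. None of the 4 calls from 2 to 13 ppm held when only the 15-day arrays were fitted (adjusted p from 0.137 to 0.429) or without the mice of conflicting duration (adjusted p from 0.213 to 0.685). Left out singly, animals 143, 144, 157, 158 and 159 ended the Gsr call, 143, 157 and 158 the Gss call and 142, 143, 157 and 158 the Slc7a11 call, with adjusted p from 0.0524 to 0.163.

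The time of exposure was compared at equal concentration. From 5 to 15 days Gclm rose at 13 ppm (0.37 ± 0.09, adjusted p = 0.0356), where 1.15% of all genes rose and 1.12% fell. By the probe sets that represent the genes, no other of the 5 passed at 0.3, 2, 13 or 90 ppm. At 0.3 ppm 0% of all genes were called by limma in either direction. At 2 ppm 0.0145% of all genes rose and 0.029% fell, and at 90 ppm 0.029% rose and 0.0942% fell. The Gclm call at 13 ppm ended without any 1 of 7 of the 10 mice (151 to 154 at 5 days, 158 to 160 at 15 days, with adjusted p from 0.0551 to 0.128). Gclm was at 0.14, 0.36 and 0.27 at 0.3, 2 and 90 ppm. By the other Gclm probe set the 4 differences, from 0.3 to 90 ppm, were -0.10, 0.08, -0.02 and 0.24, and none passed. With the mean of both probe sets the difference at 13 ppm was 0.17 (adjusted p = 0.376), and with the RNA integrity number as covariate 0.31 (adjusted p = 0.368). Without the mice of conflicting duration Gclm was higher at 15 days at 2 ppm (0.43, adjusted p = 0.0056) and at 90 ppm (0.47, adjusted p = 0.0255), beside 0.36 and 0.27 with them. These 2 calls rest on 15-day groups of fewer than 5 mice, animals 142, 144 and 145 at 2 ppm and animals 177 and 180 at 90 ppm. Without animal 141 the Gclm difference at 2 ppm passed (0.43, adjusted p = 0.0246), and without animal 161 that of Gsr at 13 ppm did (0.36, adjusted p = 0.0435). Gclc was at -0.08, 0.03, -0.15 and 0.18 from 0.3 to 90 ppm. By its other probe set, 1424296_at, the means were 10.76, 11.34, 11.90 and 12.28 at 5 days. At 15 days they were higher at each concentration, 10.97, 11.75, 12.04 and 12.74. The change from 0.3 to 90 ppm differed between the times by 0.26 for Gclc (95% interval from -0.12 to 0.64), 0.13 for Gclm (-0.14 to 0.40), -0.10 for Gss (-0.34 to 0.14), -0.07 for Gsr (-0.37 to 0.24) and 0.21 for Slc7a11 (-0.22 to 0.63). None of these differences passed, nor did those for 2 and 13 ppm. Among all genes, 0% were called by limma in either direction for 2 and 13 ppm. For 90 ppm 0% were higher and 0.0435% lower. With so few calls among all genes, the missing calls are not a result about these 5 genes.

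Over the 45 mouse arrays the 5 genes followed each other, with Pearson's r from 0.77 (Slc7a11 and Gsr) to 0.95 (Gclm and Gss). Within groups, where the concentration no longer separates the arrays, r was 0.65 for Gsr and Gss, 0.63 for Gclm and Gsr and 0.47 for Gclc and Gclm, but -0.02 for Gclc and Gss and -0.04 for Slc7a11 and Gsr. These are descriptions over arrays that share their groups and their processing. The first component of the deviations from the group means took 40.6% of their variance in the mouse, and Gss (r = 0.66) and Gclc (r = -0.67) followed it with opposite sign. The genes whose mouse signals were most like Gclc were Aox1 (r = 0.98), Txnrd1 (0.97) and Aldh1a1 (0.95). For Gclm they were Srxn1 (0.97), Txnrd1 (0.96) and Cbr3 (0.96), and for Gss they were Cbr3 (0.97), Pgd (0.96) and Srxn1 (0.96). Gsr was most like Gss (0.94), Abcb6 (0.94) and Gclm (0.93), and Slc7a11 most like Gss (0.84), Il1f9 (0.84) and Gclm (0.83).

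Signals of some genes listed for the supply of glutathione substrates changed, while the supply itself was not measured. At 90 against 0 ppm after 5 days, 6 of 9 genes tested of the list of substrate supply rose and 1 fell, with a median of 0.26. Glul, glutamine synthetase, rose by 0.59 ± 0.10, and Cbs, which makes cystathionine on the way to cysteine, rose by 0.47 ± 0.08. Slc3a2, the heavy chain that anchors Slc7a11 in the membrane, rose by 0.26 ± 0.05 (adjusted p = 0.000544). Slc1a1, a carrier for glutamate and cysteine, fell by 0.45 ± 0.08, with all 5 mice below the air group. At 15 days 2 of the 9 rose and 1 fell: Glul (0.45 ± 0.10) and Cth, which releases cysteine from cystathionine (0.50 ± 0.14), were higher and Slc1a1 (-0.35 ± 0.08) was lower. Slc3a2 was then at 0.16 ± 0.05 (adjusted p = 0.0631).

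Of 11 genes tested of glutathione breakdown, Ggt6, a gamma-glutamyltransferase (0.29 ± 0.09), and Oplah, which opens 5-oxoproline to glutamate (0.34 ± 0.10), rose at 5 days, and Ggt6 (0.29 ± 0.09) rose at 15 days. Chac1, which cleaves glutathione in the cytosol, was at 0.27 ± 0.27 and 0.22 ± 0.27, and mouse Ggt1 and Dpep2 were under the filter. Of 8 genes tested of the glutathione-dependent thiol and aldehyde enzymes, Adh5 (0.22 ± 0.07), which oxidizes the glutathione adduct of formaldehyde, and Hagh (0.22 ± 0.07), of the glyoxalase pathway, rose at 5 days. At 15 days 0 of the 8 passed by limma's adjusted p, with Hagh at 0.22 ± 0.07 (adjusted p = 0.0616).

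The 4 NRF2 targets outside glutathione synthesis, Nqo1, Txnrd1, Srxn1 and Hmox1, rose at both times, by 2.17, 1.16, 1.42 and 0.57 at 5 days and by 2.36, 1.23, 1.43 and 0.97 at 15 days. Of the 7 genes of NRF2 and its regulators, Sqstm1, an autophagy receptor that binds KEAP1 (0.39 ± 0.05), Mafg, a partner of NRF2 on DNA (0.57 ± 0.13), and Keap1, its inhibitor (0.37 ± 0.10), rose at 5 days. At 15 days Sqstm1 (0.32), Mafg (0.49) and Bach1, a repressor at the same elements (0.44 ± 0.12), rose, and Keap1 was at 0.25 ± 0.10 (adjusted p = 0.118). Nfe2l2 itself, which encodes NRF2, was at 0.12 ± 0.14 and 0.06 ± 0.14. Of 16 ATF4 targets 7 rose and 1 fell at 5 days and 6 rose at 15 days. They included Nupr1, a stress-induced chromatin protein (0.55 and 0.71), Asns, asparagine synthetase (0.49 and 0.39), and Slc7a5, the light chain of a carrier for large neutral amino acids (0.60 and 0.64). Atf4 was at -0.01 ± 0.08 and 0.01 ± 0.08, and Atf3, a stress-induced repressor named here after its value was seen, was the target that fell, by 0.72 ± 0.23. The lists were written with earlier results of these data known, and their counts are set beside 8.99% of all genes rising at 5 days and 4.68% at 15 days.

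Some markers of lung cells changed at 90 ppm as well. Among all genes, 8.99% rose and 7.35% fell at 5 days, and 4.68% rose and 3.29% fell at 15 days. At 5 days 4 of 6 ciliated cell markers and 2 of 4 club cell markers rose, and 3 of 3 B cell markers and 4 of 5 of T and natural killer cells fell. The mean log2 signal of the ciliated markers ran from 8.69 to 9.16 in the air mice and from 9.46 to 9.90 in the 90 ppm mice, and that of the club markers from 14.69 to 14.76 and from 14.85 to 14.95. The mean of the B cell markers ran from 8.75 to 9.13 in air and from 7.20 to 7.84 at 90 ppm, and that of the T and natural killer cell markers from 8.55 to 8.70 and from 7.47 to 7.93. In the 0.3 ppm mice of 5 days these means ran from 7.32 to 9.12 and from 7.88 to 9.23, overlapping the 90 ppm mice. The ciliated and club means at 0.3 ppm, 8.74 to 9.41 and 14.64 to 14.79, did not overlap them. Of the other lists, 1 of 5 alveolar type 2, 2 of 5 alveolar type 1, 1 of 6 alveolar macrophage and 1 of 4 fibroblast markers fell. Single calls in lists this short are not read as a change of the cell type. None of the neutrophil, endothelial and cardiac muscle markers passed, with the neutrophil mean at 9.96 to 10.33 in air and 9.10 to 9.53 at 90 ppm. At 15 days 3 of 6 ciliated and 2 of 4 club markers rose, 1 of 5 alveolar type 2, 2 of 5 alveolar type 1 and 2 of 6 macrophage markers fell, and none of the B cell and of the T and natural killer cell markers passed. Aldh1a1, 1 of the 3 genes most like Gclc, is also 1 of the club cell markers. The part of these markers in the changes of the glutathione genes was not tested.

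In the rat the 2 subunits of glutamate-cysteine ligase rose at 200 ppm at both times. At 5 days 1 of the 4 genes tested rose at 90 ppm and 2 at 200 ppm, while Gss fell at both concentrations. At 30 ppm none passed (0% of all genes called in either direction by limma, with 1477 of 11010 at an unadjusted p below 0.05). Among all genes, 4.13% rose and 19.5% fell at 90 ppm, and 4.68% rose and 31.6% fell at 200 ppm. The median change over all rat genes was -0.14 in both of these comparisons (-0.14 and -0.12 after quantile normalization), so the middle of all changes lay below 0 there. At 15 days Gsr rose at 30 and 90 ppm (1.14% and 0.272% of all genes rose) and Gclc, Gclm and Gsr at 200 ppm (0.5% of all genes rose). At 30, 90 and 200 ppm after 15 days 0.518%, 0.0363% and 0.318% of all genes fell. The all-gene medians at 15 days were 0.03, 0.01 and -0.01.

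**Figure D4:**
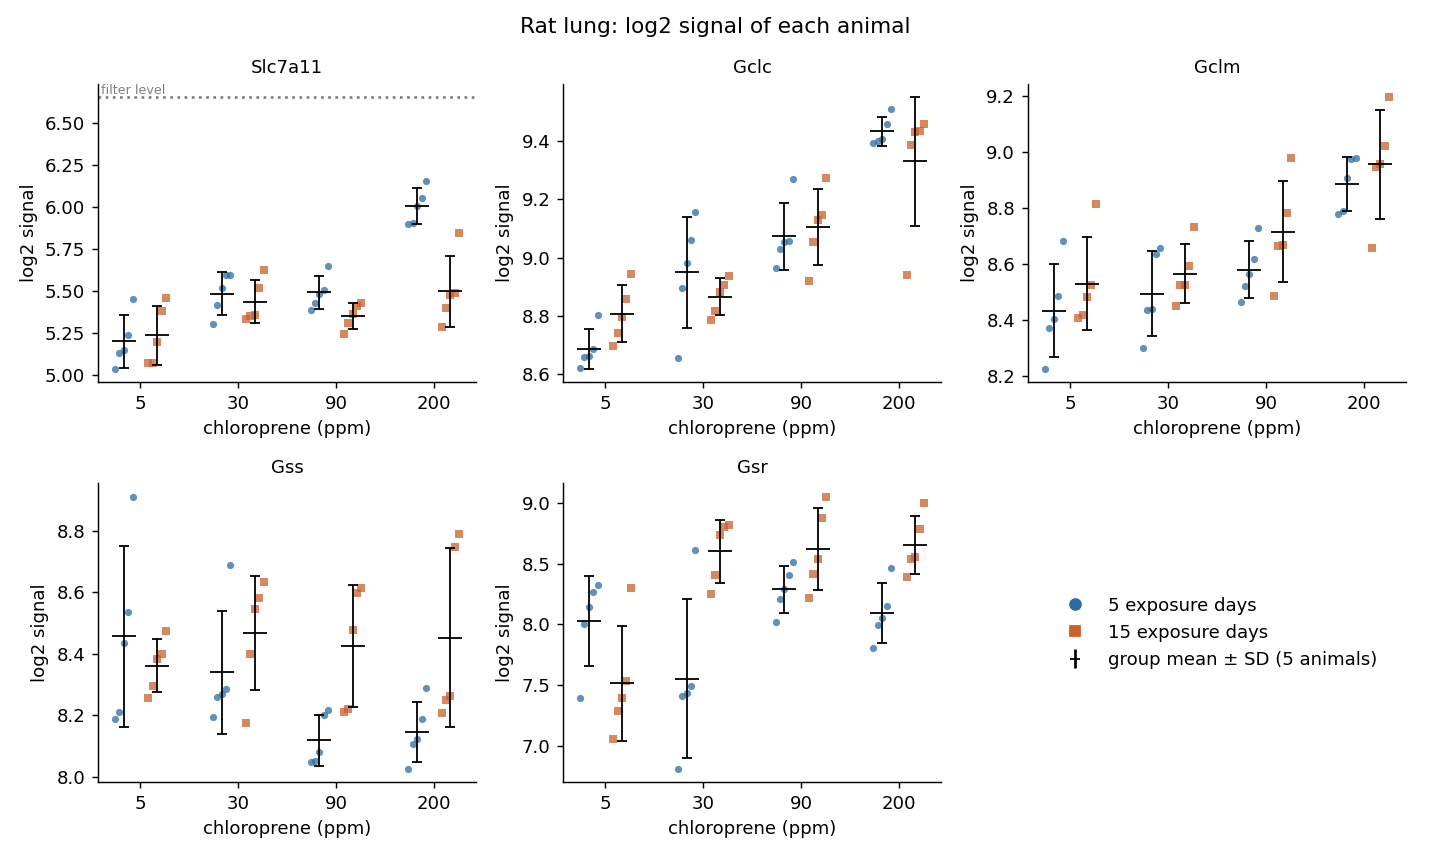
Log2 signal of each rat (points) by chloroprene concentration in ppm for the 5 genes, at 5 (blue) and 15 (orange) exposure days, with group means ± SD of 5 rats. The dotted line in the Slc7a11 panel is the filter level of 6.65, which no rat reached. The 200 ppm rats at 5 days stand above all other 5-day rats for Slc7a11, Gclc and Gclm, and the groups overlap for Gss and Gsr.

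Rat Slc7a11, measured by the single probe set 1378133_at, was at 5.04, 5.13, 5.14, 5.23 and 5.45 in the 5 ppm rats at 5 days and at 5.90, 5.90, 6.01, 6.05 and 6.15 in the 200 ppm rats. All 200 ppm rats lay above every other rat of that time, whose highest value was 5.65. None of the 40 arrays exceeded the filter of 6.65, so the signal was not shown to lie above background, and the differences given here are between low signals, with no fold. In a fit without the filter over 14217 genes the signal was higher by 0.80 ± 0.09 at 200 ppm (adjusted p = 9e-07) and by 0.29 ± 0.09 at 90 ppm (adjusted p = 0.0335), and it was at 0.28 ± 0.09 at 30 ppm (adjusted p = 0.297). At 15 days the 200 ppm rats read 5.28, 5.40, 5.47, 5.49 and 5.84, overlapping the 5 ppm rats at 5.07 to 5.46, with a change of 0.26 ± 0.09 (adjusted p = 0.136). The change from 5 to 200 ppm was smaller at 15 than at 5 days, with a difference of -0.54 ± 0.13 (adjusted p = 0.037). At 200 ppm Slc7a11 was lower at 15 than at 5 days (-0.51 ± 0.09, adjusted p = 0.0232). It was higher at 200 than at 90 ppm at 5 days (0.51 ± 0.09, adjusted p = 0.0254).

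Rat Gclc was at 8.62, 8.66, 8.66, 8.69 and 8.80 at 5 ppm after 5 days. It was at 8.65, 8.89, 8.98, 9.06 and 9.16 at 30 ppm, at 8.96, 9.03, 9.05, 9.06 and 9.27 at 90 ppm and at 9.39, 9.40, 9.41, 9.46 and 9.51 at 200 ppm. The 90 ppm rats lay above the 5 ppm rats, as for 2.88% of all genes, and the 200 ppm rats above all others, where 2.19% of all genes lay wholly above the 5 ppm rats. Gclc rose by 0.39 ± 0.08 at 90 ppm (1.31-fold, adjusted p = 0.00884) and by 0.75 ± 0.08 at 200 ppm (1.68-fold, adjusted p = 1.72e-06), and was at 0.26 ± 0.08 at 30 ppm (adjusted p = 0.271). Without animal 217 of the 5 ppm group the call at 90 ppm ended (0.37, adjusted p = 0.053), as it did with the RNA integrity number as covariate, in a fit that dropped 2 rats (0.43, adjusted p = 0.0771). The other probe set, 1370688_at, rose by 0.43 and 0.85. After 15 days Gclc was at 8.70, 8.74, 8.80, 8.86 and 8.94 at 5 ppm and at 8.94, 9.39, 9.43, 9.44 and 9.46 at 200 ppm, and it rose by 0.52 ± 0.08 (1.44-fold, adjusted p = 0.00086), with 4 of 5 above all 5 ppm rats. At 90 ppm it was at 0.30 ± 0.08 (adjusted p = 0.113, and 0.0498 after quantile normalization). The change at 90 ppm was 51.9% ± 9.75 (SE) of that at 200 ppm at 5 days and 56.9% ± 14.0 at 15 days.

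Rat Gclm was at 8.23, 8.37, 8.40, 8.49 and 8.68 at 5 ppm and at 8.78, 8.79, 8.91, 8.97 and 8.98 at 200 ppm after 5 days, without overlap. It rose by 0.45 ± 0.10 (1.37-fold, adjusted p = 0.00136) and was at 0.06 ± 0.10 and 0.15 ± 0.10 at 30 and 90 ppm. After 15 days the 200 ppm rats read 8.66, 8.95, 8.96, 9.02 and 9.20 against 8.41, 8.42, 8.48, 8.52 and 8.82 at 5 ppm, so that 4 of 5 lay above all reference rats. Gclm rose by 0.43 ± 0.10 (1.34-fold, adjusted p = 0.0216). This call ended without animal 225, 227 or 229 (5 ppm) or 277 or 280 (200 ppm), with values from 0.37 to 0.43 and adjusted p from 0.0546 to 0.0883. It also ended with the RNA integrity number as covariate (0.43, adjusted p = 0.0727), with the 15-day arrays alone (adjusted p = 0.0547) and with the 3′ minus 5′ difference described below as covariate (0.46, adjusted p = 0.278). For Gclc and Gclm the change from 5 to 200 ppm differed between the times by -0.22 (95% interval from -0.47 to 0.02) and -0.03 (-0.30 to 0.25).

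Rat Gss was at 8.19, 8.21, 8.43, 8.54 and 8.91 at 5 ppm after 5 days. The 90 ppm rats read 8.05, 8.05, 8.08, 8.20 and 8.22 and the 200 ppm rats 8.03, 8.11, 8.12, 8.19 and 8.29. In each exposed group 3 of 5 rats lay below all 5 ppm rats, and the 5 ppm group was spread more widely than either. Gss fell by 0.34 ± 0.12 at 90 ppm (adjusted p = 0.0444) and by 0.31 ± 0.12 at 200 ppm (adjusted p = 0.0451), beside the all-gene median of -0.14. Without animal 217, the highest of the 5 ppm rats, the changes were -0.22 (adjusted p = 0.233) and -0.20 (adjusted p = 0.24). The call at 90 ppm also ended without animal 219, 221 or any of 250 to 253 (adjusted p from 0.0616 to 0.0938), and that at 200 ppm without animal 219, 221, 265, 266, 268 or 269 (adjusted p from 0.0604 to 0.0943). Neither call held without the filter (adjusted p = 0.0502 and 0.053) or with the RNA integrity number as covariate (adjusted p = 0.182 and 0.0931), and that at 200 ppm ended after quantile normalization (-0.29, adjusted p = 0.0656). After 15 days Gss was at 0.11, 0.06 and 0.09 at 30, 90 and 200 ppm, with a 95% interval from -0.16 to 0.34 at 200 ppm.

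Rat Gss followed the main variation between arrays. The first component of the deviations from the group means took 64.8% of their variance in the rat, and the deviations of Gss correlated with it at r = 0.93 over 40 arrays, those of Gsr at 0.62, of Gclm at 0.48 and of Gclc at 0.03. The genes most like Gss over the rat arrays were Nubp2 (r = 0.96), Trappc12 (0.95) and Dbndd2 (0.95). The part of this component in the fall of Gss was not tested.

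Rat Gsr rose at 15 days at every concentration above 5 ppm. The 5 ppm rats read 7.06, 7.29, 7.40, 7.54 and 8.30. At 30 ppm the values were 8.25, 8.41, 8.73, 8.80 and 8.82, at 90 ppm 8.22, 8.42, 8.54, 8.88 and 9.05 and at 200 ppm 8.39, 8.54, 8.55, 8.79 and 8.995. Of the 5 ppm rats 4 lay below all exposed rats, and the highest lay above the lowest rat at 30 ppm and at 90 ppm but below all at 200 ppm. Gsr rose by 1.09 ± 0.23 at 30 ppm (2.12-fold, adjusted p = 0.017), by 1.10 ± 0.23 at 90 ppm (adjusted p = 0.0245) and by 1.14 ± 0.23 at 200 ppm (2.20-fold, adjusted p = 0.00867). The steps from 30 to 90 ppm (0.02 ± 0.23) and from 90 to 200 ppm (0.03 ± 0.23) did not pass. At 5 days Gsr was at -0.47 ± 0.23, 0.26 ± 0.23 and 0.07 ± 0.23 at 30, 90 and 200 ppm, none of which passed. The 30 ppm rats of that time read 6.82, 7.41, 7.43, 7.50 and 8.61, with 4 of 5 in the range of the 4 low 5 ppm rats of 15 days or below it. Without animal 239, the highest of them, Gsr was lower at 30 than at 5 ppm (-0.74, adjusted p = 0.0463) and higher at 90 than at 30 ppm (1.00, adjusted p = 0.0056). The title of animal 239 has another form than those of most rats, for a reason not stated. The call at 200 ppm ended without animal 225 (1.02, adjusted p = 0.0622), that at 30 ppm without animal 225, 227, 241 or 242 (adjusted p from 0.064 to 0.0988) and that at 90 ppm without animal 225, 227, 228, 229, 257, 258 or 259 (adjusted p from 0.0505 to 0.157).

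The Gsr groups moved with the 3′ minus 5′ difference of control probe sets. The signal of the 3′ minus that of the 5′ probe set of Gapdh and beta-actin, averaged over both control genes, grows as RNA or its labelling is shorter toward the 5′ end. Its median was 0.437 in the 5 ppm rats of 15 days and 0.437 in the 30 ppm rats of 5 days, and between 0.163 and 0.3125 in the other 6 groups. Within groups the deviations of Gsr correlated with it at r = -0.81 over 40 arrays, and 5 of 11010 genes had a lower r. For the other genes tested r was 0.02 (Gclc), 0.11 (Gclm) and -0.37 (Gss). With this difference as covariate the changes of Gsr at 15 days were 0.60 ± 0.15, 0.67 ± 0.15 and 0.43 ± 0.16 at 30, 90 and 200 ppm, and none passed (adjusted p = 0.176, 0.168 and 0.999). With the RNA integrity number as covariate they were 0.95, 0.99 and 1.04 (adjusted p = 0.128, 0.188 and 0.0525). In the mouse the same correlation was 0.32 for Gsr, and none of the calls of Gsr against the reference ended with the 3′ minus 5′ covariate.

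**Figure D5:**
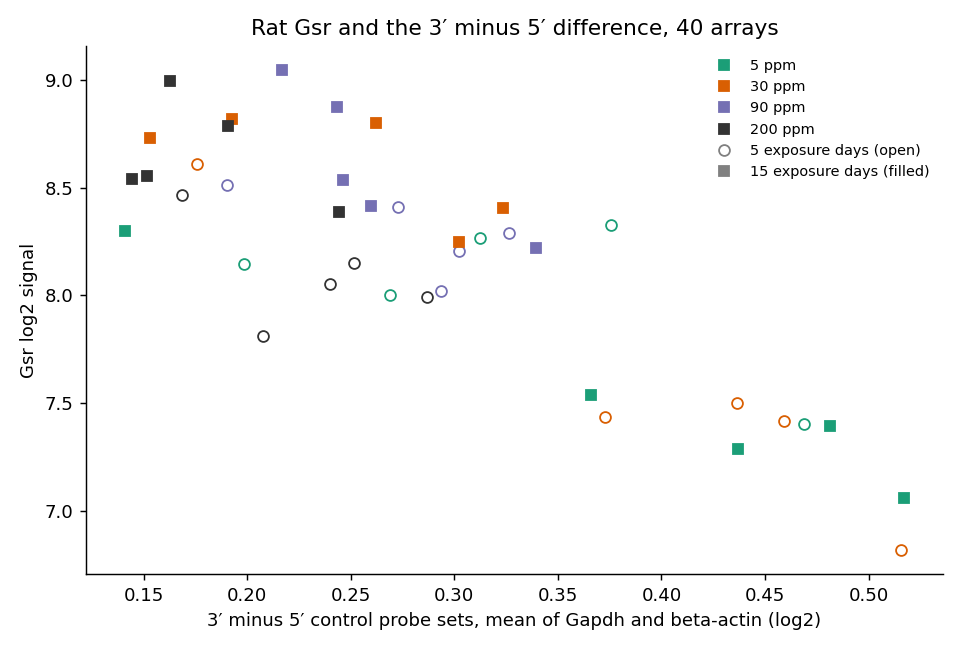
Gsr log2 signal against the 3′ minus 5′ difference of the Gapdh and beta-actin control probe sets (log2) on 40 rat arrays, coloured by concentration, open circles for 5 and filled squares for 15 exposure days. The 9 lowest Gsr signals, of which 4 are 5 ppm rats of 15 days and 4 are 30 ppm rats of 5 days, are all among the 10 arrays with the largest difference.

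Besides the low Slc7a11 signal, Gsr differed between the times in the rat. At 30 ppm Gsr rose from 5 to 15 days by 1.05 ± 0.23 (adjusted p = 0.00738), beside 3.35% of all genes. This call ended with the 3′ minus 5′ covariate (0.56, adjusted p = 0.124) and with the RNA integrity number as covariate (0.88, adjusted p = 0.188). Gclc, Gclm and Gss did not pass at any concentration. Gss was at 0.31 ± 0.12 at 90 and at 200 ppm (adjusted p = 0.0711 and 0.0767) and passed at 90 ppm without animal 260 or 261 and at 200 ppm without animal 279 or 281. Without animal 281 Gsr passed at 200 ppm too (0.62, adjusted p = 0.0485). The change from 5 to 30 ppm was larger at 15 than at 5 days by 1.56 ± 0.32 (adjusted p = 0.00841) and that from 5 to 200 ppm by 1.07 ± 0.32 (adjusted p = 0.0387), beside 2.54% and 8.81% of all genes and all-gene medians of 0.12 and 0.15. For 90 ppm the difference was 0.84 ± 0.32 (adjusted p = 0.0601). With the 3′ minus 5′ covariate these differences were 0.85 and 0.68 at 30 and 200 ppm and neither passed (adjusted p = 0.157 and 0.0935). Leaving out any 1 of 12 of the 20 rats ended the call for 200 ppm (values from 0.96 to 1.10, adjusted p from 0.0504 to 0.11).

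The rat signals of Gclc and Gclm were like each other (r = 0.82 over 40 arrays, 0.60 within groups). Gclc was most like Gsta3 (0.91), Akr1b8 (0.90) and Gsta1 (0.87), and Gclm like Akr1b8 (0.85), Srxn1 (0.83) and Gclc. Gsr was most like Arf6 (0.94), Bhlhe40 (0.92) and Znf740 (0.92), and its r with Gclc was 0.35 and with Gclm 0.42. The correlation of Gss with Gclc was -0.26 and with Slc7a11 -0.47.

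At 200 ppm after 5 days, where 4.68% of all genes rose and 31.6% fell, 2 of 9 genes of substrate supply rose and 3 fell: Mat2a, which makes S-adenosylmethionine (0.42 ± 0.11), and Slc1a4, a carrier for neutral amino acids (0.46 ± 0.15), were higher, and Slc1a1 (-0.44 ± 0.08) and Cth (-0.52 ± 0.13) lower. The share that fell was near that of all genes. Of 9 thiol and aldehyde enzymes 7 fell, among them the glutaredoxins Glrx5 (-0.50 ± 0.13) and Glrx3 (-0.22 ± 0.07), with a list median of -0.22 beside -0.14 over all genes. Of 12 breakdown genes 3 fell, a smaller share than over all genes, among them the dipeptidase Dpep2 (-0.39 ± 0.09), and Ggt1, which starts the breakdown of glutathione outside the cell, was at 0.31 ± 0.13 (adjusted p = 0.065). Ggt1 rose at 15 days by 0.59 ± 0.13 (adjusted p = 0.0245), with all 5 rats above the 5 ppm rats, and was the only gene of these 3 lists that passed then. Of 15 ATF4 targets 1 fell at 5 days, Shmt2, the mitochondrial serine hydroxymethyltransferase (-0.39 ± 0.13), and 0 passed at 15 days. None of the 7 genes of NRF2 and its regulators passed at either time, with Nfe2l2 at 0.27 ± 0.17 and -0.40 ± 0.17. At 15 days 0.5% of all genes rose and 0.318% fell, so the absence of calls in lists this short lies near that share. Of the 4 NRF2 targets Nqo1 (0.50 and 0.64), Srxn1 (0.85 and 0.96) and Txnrd1 (0.26 and 0.52) rose at both times.

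Markers of other cells were also measured in the rat at 200 ppm after 5 days. Both cardiac muscle markers tested rose (median 2.39), as did 2 of 3 club cell markers, 2 of 4 fibroblast markers, 1 of 4 ciliated and 1 of 3 endothelial markers, and 2 of 6 alveolar type 2, 1 of 4 alveolar type 1 and 1 of 3 macrophage markers fell. The shares that fell lay near the 31.6% over all genes. The mean of the cardiac pair ran from 4.96 to 6.65 in the 5 ppm rats and from 5.59 to 9.24 in the 200 ppm rats. The mean of the club markers ran from 12.14 to 12.77 and from 12.68 to 13.15, and that of the fibroblast markers from 11.08 to 11.39 and from 11.60 to 11.78. At 15 days none of the cell type markers passed at 200 ppm, where 0.5% of all genes rose and 0.318% fell. The part of these markers in the changes of the glutathione genes was not tested.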

How the data were processed

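Total RNA of the right lung was extracted with Trizol and RNeasy, labelled with biotin and hybridised to Affymetrix Mouse430_2 or Rat230_2 arrays, per the labels' protocols. The values are log2 signals per probe set as deposited by the authors. The normalization method is not given in the sources used here, and the number of arrays limits the precision. Groups were taken from the sample titles. Probe sets with at least 5 arrays over the 40th percentile of all signals of a species (6.67 in mice, 6.65 in rats) were retained, and the retained probe set with the highest mean represented its gene.

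All groups of a species were fitted in limma 3.58.1 (R 4.3.3), with Benjamini-Hochberg adjustment of each comparison's p-values over all genes tested, after the fit was tested on simulated data. The simulated noise was independent between genes, so that test did not cover variation that many genes share, as they do on these arrays. The 5 genes were followed in every comparison. From each pathway list up to 4 genes passing the test with the smallest p were named, besides Slc3a2, Ggt1, Chac1, Atf4, Nfe2l2, Keap1 and Bach1, and for likeness the 3 genes with the highest correlation. The genes and lists were chosen with earlier results of these data known. Nothing in the labels says how animals were housed or processed together, so p-values measure the spread between these animals. The titles of rats 239, 269 and 282 have another form than those of the other rats, and its meaning is not stated. Alternatives were no filter, a 60th percentile filter, quantile normalization, the mean of probe sets, each probe set by itself, RNA integrity or the 3′ minus 5′ difference as covariate, a variance trend, arrays of 1 time, subsets of mice, the 0.3 ppm reference and leaving out each animal.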

Additional observations from a re-analysis of the deposited data

Results flagged for a closer look

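Of 85 groups of 5 animals examined (each of the 5 genes in 17 groups), 5 held an animal far from the other 4, and chance gives about 1 in 20. Gclm in the mice at 0.3 ppm after 15 days had its lowest value at 9.976 with the others at 10.24 to 10.32, and Gss in the mice at 2 ppm after 15 days had 9.918 with the others at 10.14 to 10.18. In the rats, Gclc at 200 ppm after 15 days had 8.939 with the others at 9.387 to 9.459, and Gclm at 5 ppm after 15 days had 8.816 with the others at 8.408 to 8.525. Gss at 30 ppm after 5 days had 8.69 with the others at 8.196 to 8.286.

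The change of rat Gsr differed between the times in limma's test of the difference itself. From 5 to 30 ppm it was larger at 15 than at 5 days by 1.56 (adjusted p = 0.00841), and from 5 to 200 ppm by 1.07 (adjusted p = 0.0387). The 3′ minus 5′ difference moved with both, as given with the Gsr values.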

How the results depend on the processing

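Apart from leaving out animals, single genes kept their side of the threshold in 1557 comparisons of an alternative with the reported value, no longer passed in 56 and newly passed in 10. The sign differed in 41 of the 1557, all of genes that passed neither way, and in 62 of 1884 such comparisons without 1 animal. No gene that passed changed sign. Counts of the 5 genes past the threshold stayed within 1.5 times in 324 and moved in 34, given here after the reported count. With the RNA integrity number as covariate the mouse counts went at 5 days from 3 to 0 (2 against 0 ppm), from 1 to 0 (13 against 2 ppm) and from 3 to 1 (90 against 13 ppm), and from 1 to 0 (15 against 5 days at 13 ppm). The mouse fit with this covariate held 2 air mice and 3 mice at 2 ppm after 5 days. The rat counts went from 2 to 0 (90 ppm at 5 days), from 1 to 0 (30 and 90 ppm at 15 days), from 3 to 1 (200 ppm at 15 days) and from 1 to 0 (the time difference at 30 ppm, and the differences between times of the changes to 30 and to 200 ppm). The 3′ minus 5′ covariate gave the same values for the last 6 of these rat comparisons. With the mean of probe sets the mouse counts went from 2 to 1 (2 ppm at 15 days) and from 1 to 0 (13 against 2 ppm at 5 days, and 13 ppm between times). Arrays of 1 time alone gave 0 in place of 4 (13 against 2 ppm at 15 days), and the 0.3 ppm reference gave 0 in place of 3 (2 ppm at 5 days). Without the mice of conflicting duration the counts were 1 in place of 2 (2 ppm at 15 days), 0 in place of 4 (13 against 2 ppm) and 1 in place of 0 (between times at 2 and at 90 ppm). Without the lettered mice they were 1 in place of 2 (2 ppm at 15 days) and 2 in place of 4 (13 against 2 ppm). Without the filter, which lets rat Slc7a11 in, the rat counts were 1 in place of 0 (200 against 90 ppm at 5 days, and 200 ppm between times) and 2 in place of 1 (difference between times of the change to 200 ppm). Quantile normalization gave 2 in place of 1 (90 ppm at 15 days) and 1 in place of 0 (90 ppm between times, and the difference between times of the change to 90 ppm). The cause was not tested.

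Leaving out 1 animal at a time, the mouse counts ran from 1 to 3 (2 against 0 ppm), 1 to 2 (2 ppm at 15 days), 0 to 1 (13 against 2 ppm at 5 days, and 2 ppm between times), 1 to 3 (90 against 13 ppm at 5 days), 1 to 4 (13 against 2 ppm at 15 days) and 0 to 2 (13 ppm between times). The rat counts ran from 0 to 1 (30 ppm at 5 days, 30 and 90 ppm at 15 days, 90 against 30 ppm at 5 days, and 90 ppm between times), 0 to 2 (90 ppm at 5 days, 200 ppm between times, and the differences between times of the changes to 90 and to 200 ppm) and 1 to 3 (200 ppm at 15 days). At 90 ppm against 0 or 0.3 ppm all 5 mouse genes passed without any 1 animal. Rat Slc7a11 lay under the filter on all 40 arrays and mouse Slc7a11 on all but 8 of 45, which limits their precision. No paired analysis was possible because animal numbers belong to 1 group each.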
